A study of Mus musculus with 2 samples.

Results

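Genes of the nuclear pore and of RNA export were followed in nuclear RNA of stimulated mouse macrophages. They were chosen by name, as genes with an annotated protein-coding transcript and a symbol of the Nup, Nxf, Nxt, Xpo or Thoc series. Earlier results of these data were known when this rule was set. The rule found 38 genes among 21901 genes with a protein-coding transcript and 55450 genes in all. Older symbols fell outside it, so the channel nucleoporin Nupl1 and the cytoplasmic-side nucleoporin Nupl2 are not members.

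Total RNA, depleted of ribosomal RNA, came from the nucleoplasm (a second label field says nucleus) of macrophages grown from bone marrow of C57BL/6J mice. The cells had received Lipid A, the part of bacterial lipopolysaccharide sensed through Tlr4, at 100 ng/ml for 120 min. The libraries are biological replicates 1 and 2 of 1 group, from 1 µg and 500 ng of RNA, so input and replicate cannot be told apart. Both carry the same donor entry, and nothing in the labels says that they came from separate animals or cultures. Untreated cells were not analysed here, so the levels below show no response to Lipid A and no test was run.

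The nuclear pore complex is a channel through the nuclear envelope, built from a ring-shaped scaffold of nucleoporins and lined by nucleoporins with phenylalanine-glycine (FG) repeats. Messenger RNA is packaged in the nucleus with the help of the THO complex and then carried through this channel by the heterodimer of Nxf1 and Nxt1. Other cargo, such as proteins with export signals, transfer RNA and microRNA precursors, leaves with exportins that bind the GTPase Ran. In macrophages this route is shared by the RNA of inflammatory genes and by all other messages.

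Macrophage identity was checked with 8 marker genes, among them Csf1r, Adgre1 and Lyz2, and 8 of 8 reached 1 TPM (counts per effective length, scaled so that each library has the same total) in both libraries. The gene tables held 14374739 and 16372797 estimated counts. The libraries stood apart in 3 respects that touch what follows. The share of counts in mitochondrially encoded genes was 0.424% and 8.70%, and 11 stromal marker genes had 6123 and 67 counts. The 8 macrophage markers had 25557 and 64123 counts. The log2 ratio of replicate 2 over replicate 1 in TPM was -0.52 for the median gene, and ratios between the libraries are given relative to it. On that scale the macrophage markers had a median of 1.03, with Lyz2, Cd68, Csf1r and Itgam more than 2-fold higher in replicate 2. The other macrophage markers lay between -0.33 (Spi1) and 0.69 (Fcgr1). In TPM itself 29 of the 30 detected members were lower in replicate 2, as was the median gene. The share over all genes was not counted, so this is not a trait of the members.

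The sequences at the ends of introns come first, because the most counted transcript of the most abundant member contains one. They were read from the GENCODE M21 transcripts (mm10), 15 bases to each side of a boundary, 5′ to 3′, with intron bases in capitals. Nxf1-209, a transcript of 4042 nt, keeps intron 10 of the 20 introns that are all removed in the spliced Nxf1-201, of 2326 nt. It also starts 34 nt later and ends 15 nt earlier. That intron spans 1765 nt (chr19:8765032-8766796, plus strand). The first pair shows where Nxf1-209 runs into and out of the intron, and the third line shows the same exons joined in Nxf1-201, with no intron base.
Nxf1-209, exon 10 into intron 10 (chr19:8765017-8765046): gtccagctatatcagGTCAGTTGTAGCCTC
Nxf1-209, intron 10 into exon 11 (chr19:8766782-8766811): TCCCGTTCTTGACAGcgccattcgcgaacg
Nxf1-201, exon 10 joined to exon 11: gtccagctatatcagcgccattcgcgaacg

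Reading on into intron 10, the annotated coding sequence of Nxf1-209 ends at a stop codon that starts 242 nt into the intron, shown in capitals in the next line.
Nxf1-209, stop codon (chr19:8765258-8765287): tttctccttctttctTGAacacagcctttt
The coding sequence is therefore 418 codons long in Nxf1-209 and 618 codons in Nxf1-201. As background, this intron is known to carry a constitutive transport element, an RNA structure that Nxf1 protein itself binds and that lets the unspliced message leave the nucleus and be translated.

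Transcripts of Nup98 and Thoc2 that carry intron sequence were also well counted. The transcript Nup98-202 ends 2095 nt into intron 10 (3971 nt) and Nup98-207 ends 2312 nt into intron 4 (2618 nt), so neither holds a whole intron. Thoc2-211 holds intron 28 of 38 whole (490 nt, chrX:41822872-41823361, minus strand). Their boundaries, on the minus strand, read as follows.
Nup98-202, exon 10 into intron 10 (chr7:102180362-102180391): acacttccaattttgGTACATATAAAATGC
Nup98-207, exon 4 into intron 4 (chr7:102194646-102194675): caactggctttgggaGTAAGTAGGACACTA
Thoc2-211, exon 28 into intron 28 (chrX:41823347-41823376): tgcattggctatgggGTAACACAATTATAT
Thoc2-211, intron 28 into exon 29 (chrX:41822857-41822886): TTGTGCGACTTTCAGctactcggggcagtt
All 4 introns shown begin with GT, and the 2 whose far end is covered end with AG, as most introns do.

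Most members were present at low to moderate level, and Nxf1 stood far above the rest. At 1 TPM or more in both libraries, 30 of 38 members were detected. The background share of genes with a protein-coding transcript that pass this limit was 40.6%. The median over all 38 members was 5.48 TPM (6.97 in replicate 1 and 3.91 in replicate 2), against 0.41 TPM over all genes with a protein-coding transcript. Among detected genes only, the median was 7.21 TPM for members and 9.12 TPM for the background, so the detected members did not stand above other detected genes. All members together held 0.229% of counts in replicate 1 (95% Wilson interval 0.226 to 0.231) and 0.186% in replicate 2 (0.184 to 0.188), intervals that cover counting error only. Nxf1, Nup98, Thoc2, Xpo6 and Xpo1 held 69.4% and 68.4% of these counts.

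**Figure D1:**
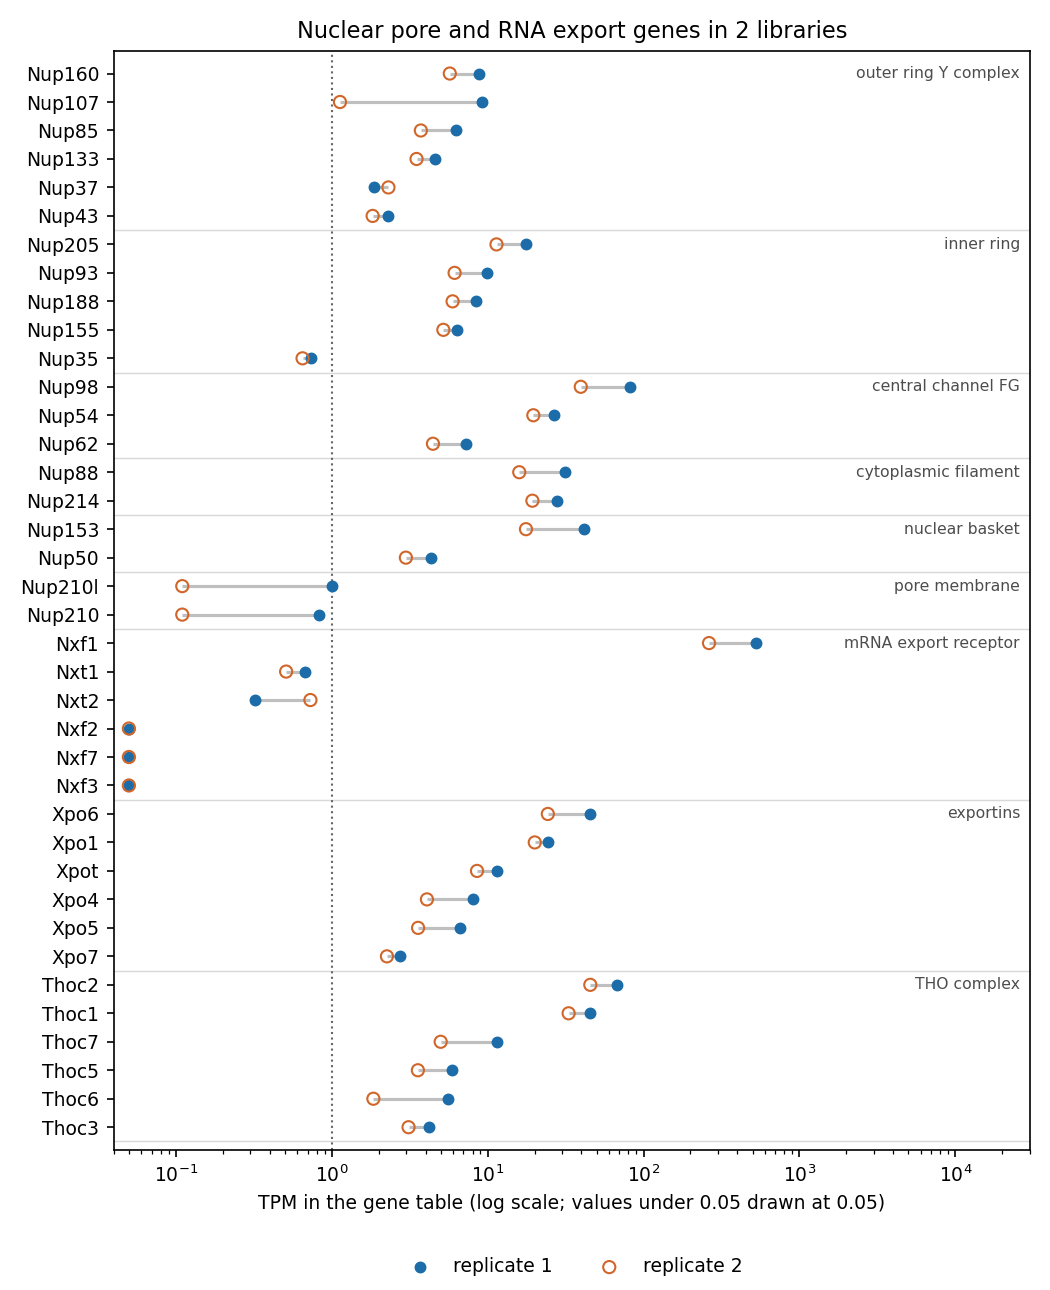
TPM of each of the 38 members in replicate 1 (filled) and replicate 2 (open) on a log axis, grouped by role, with a dotted line at 1 TPM. Nxf1 lies at 529 and 263 TPM, to the right of every other member in both libraries, while Nxf2, Nxf3 and Nxf7 are listed at 0 and Nup107 has the widest gap among detected members.

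The mRNA export receptor genes were divided between 1 very abundant gene and 5 that were not detected. Nxf1 (ENSMUSG00000010097.15, chr19:8757073-8770922) had 529 TPM from 11419 counts in replicate 1 and 263 TPM from 10096 counts in replicate 2 (396 ± 188 TPM, SD, n = 2). It was the highest member in both libraries, 6.45-fold and 5.78-fold above the next, and ranked 67 of 21901 genes by mean TPM and 136 by counts. Nxt1, whose protein pairs with Nxf1, had 7 and 8 counts (0.67 and 0.51 TPM). Nxt2, its paralog, had 10 and 35 counts (0.32 and 0.73 TPM). The tissue-restricted relatives Nxf2, Nxf3 and Nxf7 were at 0 counts in each library, and a count of 0 leaves room for up to 3. Of the 2 partners, Nxf1 was thus the highest member and Nxt1 was not detected, although the Nxt1 value rests on few counts. The TPM of Nxf1 includes short transcripts, described below, and Nxf1-209 with intron 10 (163 and 108 TPM). The spliced Nxf1-201 alone had 51.5 and 8.45 TPM.

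THO complex genes were all detected, with a median of 6.49 TPM over 6 members. Thoc2, the large scaffold subunit, had 67.3 and 45.6 TPM from 3392 and 3802 counts. Thoc1 followed at 45.4 and 33.1 TPM. These 2 subunits lay above the others in each library. Thoc7 had 11.5 and 5.0 TPM, Thoc5 5.90 and 3.57 TPM, Thoc6 5.53 and 1.85 TPM, and Thoc3 4.18 and 3.11 TPM. The means of the 6 subunits ran from 3.65 to 56.4 TPM, and the order of the lower 4 changed between the libraries.

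Exportin genes were detected 6 of 6, with a median of 8.05 TPM. Xpo6, which exports actin with profilin, had 45.6 and 24.3 TPM from 2504 and 2018 counts. Xpo1 (CRM1), the receptor for leucine-rich export signals, had 24.4 and 20.1 TPM from 1264 and 1721 counts. Xpot, which exports transfer RNA, had 11.4 and 8.55 TPM. In gene-table TPM the actin exporter was the highest of the family in both libraries. Its lower value (24.3 TPM) lay close to the higher value of Xpo1 (24.4 TPM). Protein-coding transcripts held 18.1% and 17.5% of the Xpo6 TPM, the lowest share of the family, against 69.2% and 81.1% for Xpo1. Xpo6 also overlaps Gm17137 (463 and 346 counts) on the other strand. Xpo4 had 8.11 and 4.08 TPM, and Xpo5, which carries microRNA precursors, had 6.65 and 3.58 TPM. Xpo7 was lowest at 2.74 and 2.26 TPM.

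Among the members, nucleoporins of the central channel and of the faces of the pore had higher group medians than those of the scaffold. Nup62 and Nup50 still lay below several scaffold genes. Nup98, an FG nucleoporin (ENSMUSG00000063550.8, chr7:102119398-102210176), had 82.1 and 39.6 TPM from 4218 and 3205 counts. Its channel partners Nup54 and Nup62 had 26.8 and 19.6 TPM, and 7.28 and 4.46 TPM. The Nup62 value is uncertain, since the gene overlaps Il4i1 (673.56 and 316.87 counts) on the same strand. On the cytoplasmic side, where messenger ribonucleoprotein is remodelled, Nup88 had 31.4 and 16.0 TPM and its partner Nup214 had 27.9 and 19.4 TPM. In the nuclear basket, Nup153 had 41.4 and 17.6 TPM and Nup50 had 4.34 and 2.99 TPM. The medians were 23.2 TPM for the 3 channel members, 23.6 TPM for the 2 cytoplasmic members and 16.6 TPM for the 2 basket members. Genes outside the naming rule are left out of these medians and went both ways. The scaffold genes Seh1l and Sec13 had 21.6 and 15.2 TPM, and 23.2 and 9.29 TPM. Nupl1 of the channel had 0.20 and 0.04 TPM, and Ranbp2 of the cytoplasmic side had 152 and 112 TPM. Short transcripts also weigh on these values. Without transcripts under 1000 nt, a limit set after the values were seen, Nup214 had 7.94 and 5.67 TPM and Nup153 13.3 and 8.24 TPM. Both then lay below the scaffold gene Nup205 (17.6 and 11.4 TPM). Nup98 kept 82.15 and 39.59 TPM, and Nup93 of the scaffold fell to 3.18 and 2.44 TPM. Group medians were not recomputed on that limit. The order of the groups therefore holds only for the members and for gene-table TPM.

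The scaffold groups, as the rule takes them, had lower medians. The inner ring had a median of 7.19 TPM over 5 members. Nup205 led it at 17.6 and 11.4 TPM, ahead of Nup93 (9.85 and 6.14 TPM), Nup188 (8.42 and 5.96 TPM) and Nup155 (6.39 and 5.20 TPM). Nup35, which ties this ring to the membrane, had only 15.42 and 20 counts and was not detected. The outer ring, known as the Y complex, had a median of 4.52 TPM over 6 members. Nup160 had 8.75 and 5.72 TPM, Nup85 6.23 and 3.73 TPM, Nup133 4.63 and 3.50 TPM, Nup43 2.3 and 1.83 TPM, and Nup37 1.88 and 2.31 TPM. All values of these 5 lay between 1.83 and 8.75 TPM. Nup107, the sixth, had 9.21 and 1.13 TPM and is described with the differences between libraries. Subunits of 1 complex are built into the pore in fixed ratios, so the spread of nuclear RNA within these groups is a statement about RNA and not about protein.

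The membrane nucleoporins that match the rule were near absent. Nup210, a pore membrane protein that varies between cell types, had 15 and 14 counts (0.83 and 0.11 TPM). Its relative Nup210l, known from testis, had 77 and 13 counts (1.00 and 0.11 TPM). Neither reached 1 TPM in both libraries.

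Pathway genes outside the naming rule were also mostly present. Of 52 listed genes 51 matched a symbol, and 48 were detected in both libraries, with a median of 10.3 TPM. Of the 49 averaging at least 1 TPM, 0 lay more than 2-fold from the median gene in the log2 ratio of TPM + 1 between libraries. The background shares were 4.61% higher and 2.1% lower. Their median relative log2 ratio was -0.03. In TPM itself some differed by more than 2-fold, such as Rcc1 (4.22 and 0.96). Among other nucleoporins the highest were Ranbp2 (152 and 112 TPM), the large protein of the cytoplasmic filaments, and the basket protein Tpr (132 and 77.2 TPM). Ndc1, a pore membrane protein, was lowest at 0.36 and 0.81 TPM, while Pom121, another one, was detected at 5.3 and 4.39 TPM. Partners of THO in the TREX complex were led by the helicase gene Ddx39b (143 and 76.5 TPM) and by Zc3h11a (116 and 77.8 TPM), and Alyref2 was lowest at 1.23 and 0.46 TPM. The helicase paralog missing from the match is annotated as Ddx39, found after the values were seen, at 11.2 and 5.85 TPM.

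In the TREX-2 complex, which tethers export to the pore, all 6 genes were detected. Sem1 (22.1 and 15.04 TPM) and Eny2 (14.9 and 5.96 TPM) were highest and Cetn2 (1.51 and 2.34 TPM) lowest. Of the cap-binding and remodelling genes, 5 of 5 were detected between Ncbp1 (3.71 and 2.71 TPM), the lowest, and Ddx19b (7.51 and 5.26 TPM), the highest, with Ncbp2 next at 4.61 and 4.08 TPM. The Ran cycle was led by Ranbp1 (20.2 and 16.9 TPM) and Ranbp3 (26.5 and 10.2 TPM), and the exchange factor gene Rcc1 was lowest at 4.22 and 0.96 TPM. All 17 import receptor genes, counting the importin-alpha exporter Cse1l, were detected. Kpna3 (80.5 and 54.9 TPM) and Tnpo3 (54.4 and 27.5 TPM), which imports splicing factors, led them, and Kpna2 was lowest at 2.58 and 1.89 TPM. The channel nucleoporin Nupl1 had 9.67 and 2.80 counts, and Nupl2 had 41 and 23.

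The 280 annotated transcripts of the members fall into 4 types. They are 119 protein_coding, 91 retained_intron, 50 processed_transcript (a spliced RNA with no open reading frame assigned) and 20 nonsense_mediated_decay. Protein_coding transcripts held 73.8% and 78.4% of the members' counts, and retained_intron transcripts held 18.5% and 15.8%. Without Nxf1 the retained_intron share of counts was 27.6% and 22.7%. In TPM, where short transcripts weigh more, protein_coding transcripts held 48.0% and 58.3% and retained_intron transcripts 22.6% and 24.1%. Retained_intron transcripts of the members are short, with a median of 857 nt against 2352 nt for protein_coding ones, which moves every share between the scales.

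The retained_intron share was measured per gene in members at 5 TPM or more in both libraries that have such a transcript. Over these 15 members the median share of transcript TPM was 39.8%, and over 3791 genes chosen the same way it was 36.0%. In counts the medians were 16.8% and 22.5%. In the TPM of a second transcript table, made from reads, they were 38.2% and 38.9%. The members thus lay slightly above the background in the first measure only. A share of 50% or more of TPM was seen in 4 of the 15 members, against a background of 27.5%. The share differed between the libraries by a median of 5.07 percentage points and by at most 14.3.

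**Figure D2:**
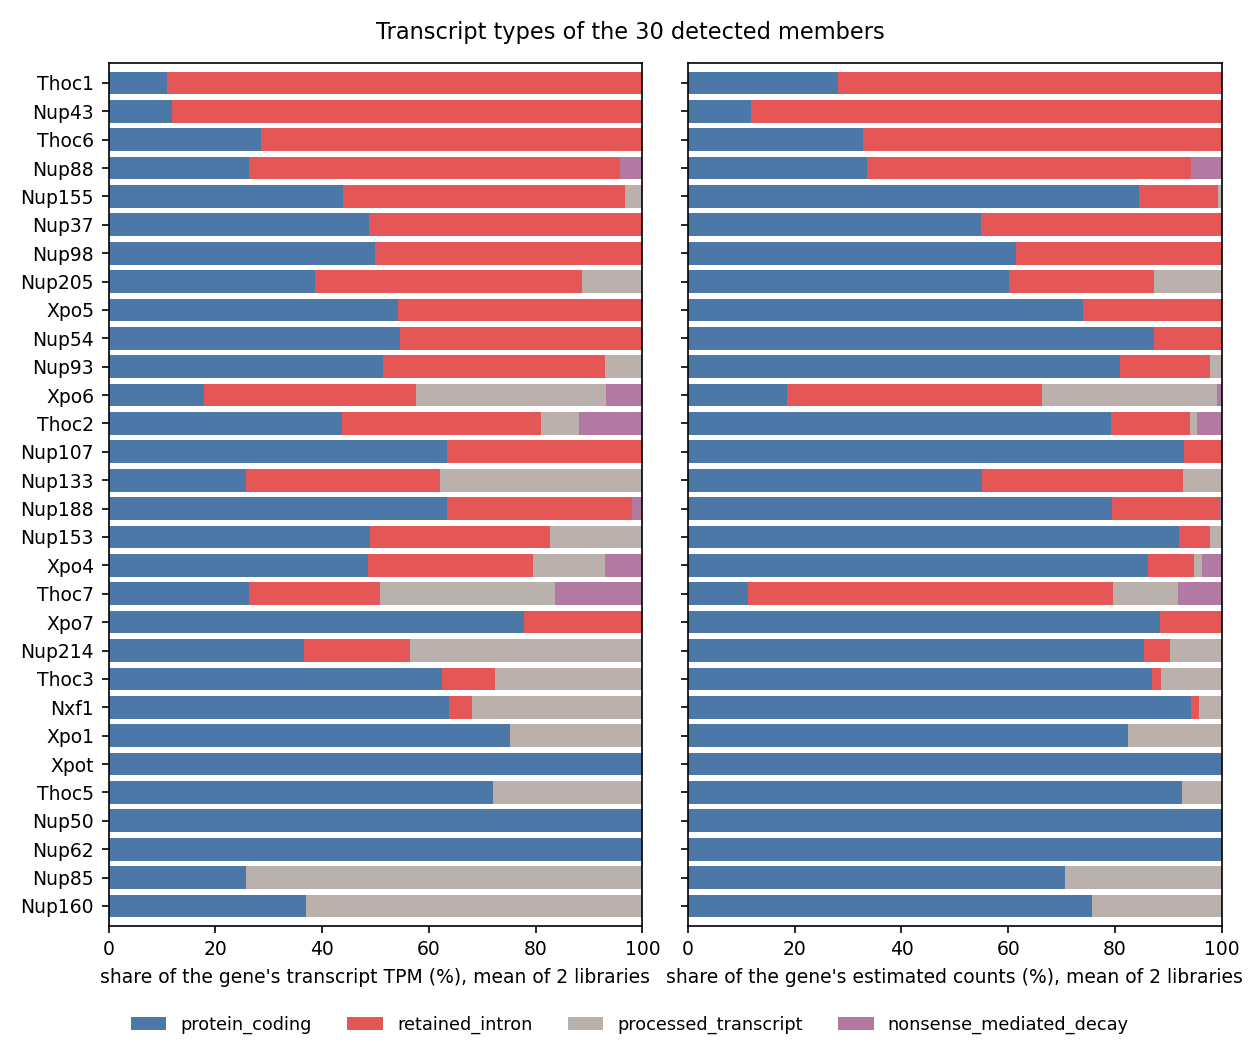
Share of each detected member's transcript TPM (left) and estimated counts (right) by annotated transcript type, as the mean of both libraries, ordered by the retained_intron share of TPM. Thoc1 is among the highest on both scales, while Nup155 falls from 52.8% in TPM to 14.9% in counts and Nxf1 is nearly free of transcripts with this label.

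Thoc1 had the highest share of TPM among these members, with 88.0% and 90.1% in retained_intron transcripts. In counts it had 68.9% and 75.0%, just below Nup88 (69.04%) in replicate 1 and Thoc7 (75.8%) in replicate 2. Its most counted one was Thoc1-211 (241.22 and 263.64 counts), which holds intron 13 of 20, and its protein_coding transcript Thoc1-201 had 300.72 and 270.92 counts. The gene overlaps Usp14 (476.02 and 615.23 counts) on the other strand. Nup88 followed with 76.7% and 62.4% of TPM, spread over several transcripts, of which Nup88-204 holds 5 whole introns (192.14 and 102.63 counts). It overlaps Rabep1 (1597 and 1036 counts) on the other strand, and the labels do not say whether counting used strand.

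Nup155 (50.3% and 55.4% of TPM), Nup98 (54.8% and 45.3%) and Nup205 (52.2% and 47.6%) completed the highest 5. For Nup155 the share rests on few counts, 13.4% and 16.3% of 271 and 321. Nup205 also kept most counts in a protein_coding transcript, Nup205-201, with 529.95 and 561.93. Nup98 was the member of these with the firmest counts, 1813.5 and 1086.74 in its retained_intron transcripts.

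At the low end, Xpot had 0% in both libraries and Nxf1 had 3.25% and 5.27%. Nup214 had 17.5% and 22.2%, Thoc7 had 19.9% and 29.3%, and Nup153 had 28.98% and 38.6%. Xpot had 788.66 and 857.79 of its 801 and 873.98 counts in the single protein_coding transcript Xpot-203. The read-based table gave its retained_intron transcript 26.3% and 2.37% of TPM. In Thoc7 the scales part: its retained_intron transcript Thoc7-206, of 5264 nt, held 59.7% and 74.6% of counts. Thoc7 overlaps Atxn7 (1123 and 1075 counts) on the other strand.

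Among the members, the label retained_intron mostly did not mark whole introns, and its use in other genes was not counted. Of the 91 transcripts so labelled, 26 hold a complete coding-region intron of the gene's longest coding transcript, and 65 cover only part of an intron, as Nup98-202 does. Counting every transcript that holds a whole coding-region intron, whatever its label, gives 29 transcripts in 13 members. This measure was added after the values were seen. By it, Nxf1 had 77.9% and 89.0% of its counts in intron-holding transcripts, nearly all in Nxf1-209, which is labelled protein_coding. Over 2029 genes at 5 TPM or more with such a transcript, the median share of counts was 20.9%, and a share of 50% or more was seen in 18.2%. It was seen in 2 of 9 members, Nxf1 and Thoc7. Among 124 of these genes with 5000 or more counts in both libraries, Nxf1 ranked 5.

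Nxf1-209, the transcript with intron 10 shown above, had 8758.16 counts in replicate 1 and 8808.16 in replicate 2. These were 76.7% and 87.2% of the gene's counts. The spliced Nxf1-201, which encodes the full-length export receptor, had 1528.33 and 378.78 counts (13.4% and 3.75%). Intron-holding RNA was thus more counted than the spliced form in both libraries, by 5.73-fold and 23.3-fold. In TPM, which corrects for length, the ratios were 3.16 and 12.8. A further transcript table was made from reads rather than alignments and is called read-based here. In it the ratios were 1.92 and 3.96 in TPM, in the same direction.

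Other Nxf1 transcripts matter for the gene's TPM and little for its counts. Nxf1-203, a processed_transcript of 431 nt at the 3′ end of the gene, had 669.65 and 262.33 counts, yet 41.7% and 21.8% of the gene's TPM. In the read-based table it had 63.5 and 0 TPM. Nxf1-208, of 505 nt, had 76.6 and 74.6 TPM from 311.23 and 456.83 counts. Without any transcript under 1000 nt, a limit set after the values were seen, Nxf1 had 214 and 117 TPM and ranked 156 of 21901 genes. The next member on that limit was Nup98, at 82.15 and 39.59 TPM. Nxf1 was the highest member in the read-based table too, at 242 and 114 TPM, with Thoc2 next at 73.7 and 49.2 TPM. The lead of Nxf1 was thus smaller on both of these measures than in the gene table.

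The tables assign shared reads among transcripts by estimation and hold no junction reads. Nuclear RNA also contains messages whose splicing is not finished. Unfinished RNA and a stably retained intron 10 cannot be told apart from these values.

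**Figure D3:**
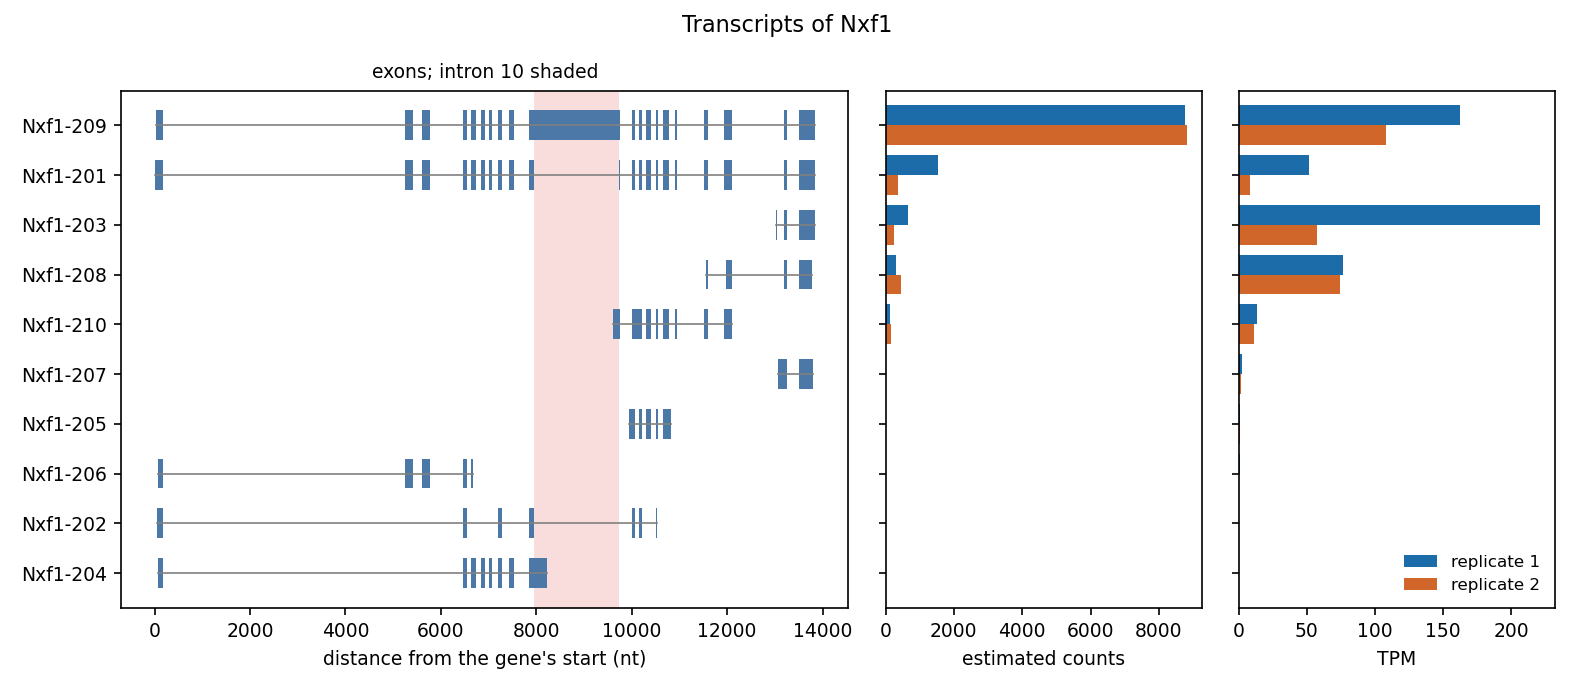
Exons of the 10 Nxf1 transcripts by distance from the start of the gene (left, intron 10 shaded), with estimated counts (middle) and TPM (right) in replicate 1 (blue) and replicate 2 (orange). Nxf1-209 is the only transcript with an exon across the whole shaded intron and has 8758 and 8808 counts, while the short Nxf1-203 has the highest TPM in replicate 1.

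Nup98 RNA encodes more than 1 product. Its longest coding transcript, Nup98-203 (1816 codons), makes the precursor that is cleaved into Nup98 and the scaffold nucleoporin Nup96, while the shortest well-counted coding transcripts encode Nup98 without the Nup96 part. Nup98-203 had 1262.73 and 1126.96 counts (13.9 and 8.19 TPM). The shorter Nup98-204 and Nup98-205 together had 823.57 and 716.36 counts (17.2 and 10.1 TPM). By TPM the short forms stood slightly above the precursor in both libraries, and the read-based table gave the same order, at 12.2 and 7.52 TPM against 8.42 and 5.82 TPM. Nup98-201 and Nup98-206, of intermediate coding length (1187 and 1170 codons), added 6.13 and 3.38 TPM together, and the order turns if they are counted with the precursor. The transcripts Nup98-202 and Nup98-207, which run into introns 10 and 4, took 43.0% and 33.9% of the gene's counts.

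Thoc2, Xpo1 and Xpo6 differed in how their RNA was divided. Thoc2-201, the full coding transcript of 1594 codons, had 2540.45 and 2941.85 counts, and Thoc2-211 with intron 28 had 283.29 and 271.14. Xpo1 has no annotated retained_intron transcript, and its protein_coding transcripts held 69.2% and 81.1% of TPM. The split among them was not stable, since Xpo1-204 had 68.58 and 444.69 counts and was listed at or near 0 TPM in the read-based table. Xpo6 kept few counts in protein_coding transcripts, with Xpo6-213 at 453.43 and 380.92 of 2504 and 2018 counts.

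Differences between the libraries were small for most members. Relative to the median gene, the median log2 ratio of replicate 2 over replicate 1 was -0.05 over the 30 members averaging at least 1 TPM, with 13 above and 17 below. The SD of this ratio was 0.44 over the members and 0.60 over 9559 genes. No member was more than 2-fold higher in replicate 2, against a background of 4.61% of genes. A single member, Nup107, was more than 2-fold lower, against a background of 2.1%. Across the 30 detected members log2 TPM correlated between the libraries with r = 0.963 (Spearman 0.915), as a description over genes that share these 2 libraries.

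Nup107, a core subunit of the Y complex, was named for its value. It had 282 counts and 9.21 TPM in replicate 1, and 42 counts and 1.13 TPM in replicate 2, a relative log2 ratio of -1.74. In the read-based table it had 14.1 and 1.67 TPM. Its protein_coding transcript Nup107-201 carried most of the difference, with 268.09 and 38.2 counts. Stromal markers, which had 0 of 11 genes detected in both libraries, moved the same way, with summed levels of 95.6 and 0.83 TPM and Col3a1, Dcn and Lum at 0 counts in replicate 2. The sum over the macrophage markers moved the opposite way, at 938 and 2004 TPM, of which Lyz2 had 403 and 1316 TPM. Single macrophage markers were mixed. In TPM, Adgre1 (219 and 168), Mertk (81.7 and 56.7) and Spi1 (37.45 and 20.3) were lower in replicate 2, and the other markers were higher. The part of stromal or macrophage RNA in the Nup107 value was not tested. In bulk RNA fewer cells of a type and less RNA per cell cannot be told apart.

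**Figure D4:**
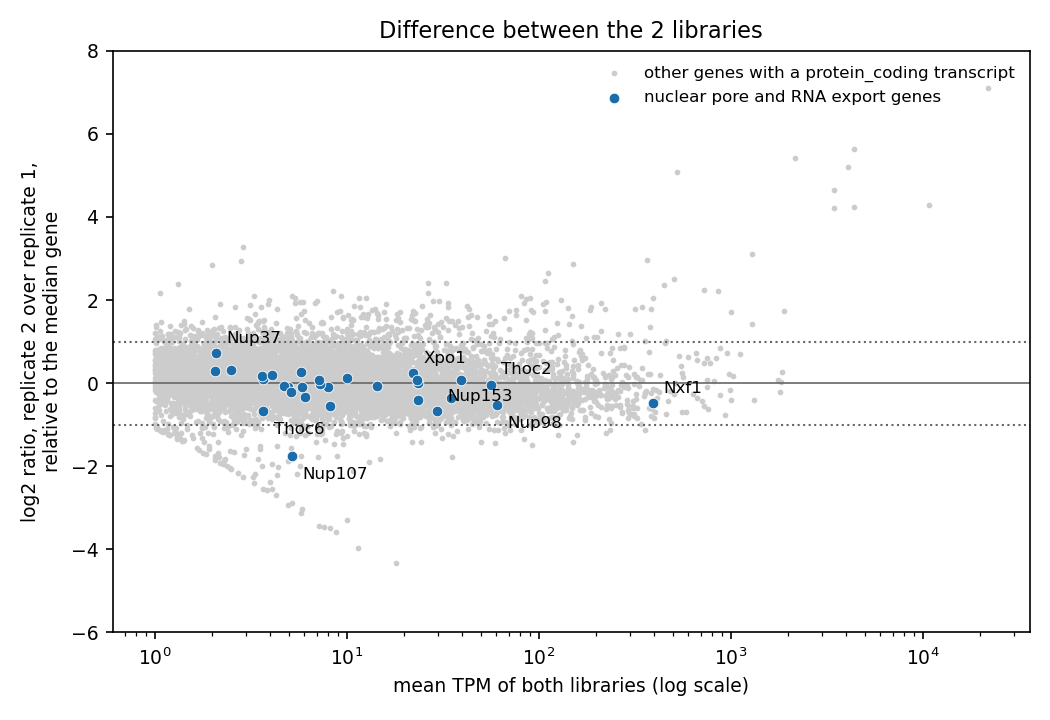
Log2 ratio of replicate 2 over replicate 1 relative to the median gene (vertical) against mean TPM on a log axis, for 9559 genes averaging at least 1 TPM (grey) and the 30 members among them (blue), with dotted lines at 2-fold. Nup107 at -1.74 is the only member outside the lines, and Nxf1 lies at -0.49.

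Relative to the median gene, the other differences among the 30 members averaging at least 1 TPM stayed within 2-fold. The next lowest were Thoc6 at -0.68, from 86.18 and 41.51 counts, and Nup153 at -0.67, from 1266 and 1119 counts. For Nup153 the count of the main transcript Nup153-201 was close in both (1105.48 and 1030.83), while the short Nup153-205 fell from 12.4 to 0.83 TPM. Highest was Nup37 at 0.72, from 25 and 45 counts. Nxf1 stood at -0.49, Nup98 at -0.52, Thoc2 at -0.04 and Xpo1 at 0.25. Nup210l, which averaged under 1 TPM, had 77 and 13 counts (1.00 and 0.11 TPM). Adding 1 TPM to each value left its ratio at only -0.33.

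Levels of the members in the gene table and the read-based table ranked alike, with a Spearman correlation of 0.964 over the 30 detected members. The tables come from the same libraries and so share their reads. Single members departed from this. The read-based mean was 0.45 of the gene-table mean for Nxf1, 1.94 for Nup54 and 2.03 for Nup62. For Nup54 the read-based table gave 14.0 and 4.94 TPM to the short Nup54-204, which had 0 and 0 TPM in the alignment-based table. Of the 38 members, 22 overlap another annotated gene, and in 15 that gene had 10 or more counts in a library. The same shares over all genes were not counted, so these numbers do not set the members apart. Nup133 overlaps Gm20388 on the other strand, which had 0 and 456.06 counts.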

How the data were processed

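Per the labels' accompanying notes, the authors made 1 gene and 1 transcript table per library from alignments to the transcriptome, and a second transcript table directly from reads, on mm10 with annotation M21. Their aligner, tools, versions and strand setting: not given in the sources used here. Deposited expected counts are estimated counts that need not be whole, deposited TPM values are scaled per effective length to one total, and deposited FPKM values served only as an alternative, per the file headers. Totals of 14374739 and 16372797 counts set the precision. Short transcripts gain weight in TPM.

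Members were matched by symbol, and detection required 1 TPM in both libraries. Ratios used log2((TPM + 1) of replicate 2 over replicate 1), less the median of genes averaging at least 1 TPM, which understates low genes. Isoform shares used members at 5 TPM or more. Exon structures and sequences came from GENCODE M21. Every member is named, with isoforms for the 5 highest and 5 lowest retained_intron shares and for Nxf1, Xpo1, Nup98 and Thoc2. Members and lists were chosen with earlier results of these data known. The ratio step was tested on simulated data. edgeR 4.0.16 and DESeq2 1.42.0 gave alternative scalings of rounded counts, in R 4.3.3, with Python 3.11.15 and pandas 2.3.3 for the rest. The spread between the 2 libraries, which may be technical, is the only error available. Proteins of Nxt1 and Nxt2, planned to be shown, are not used here. Other cell type lists were low: in both libraries, T cell genes were detected in 1 of 5, endothelial in 1 of 4, B cell in 0 of 4 and neutrophil in 0 of 4.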

Additional observations from a re-analysis of the deposited data

How the results depend on the processing

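No test was possible with 1 group, and no paired analysis was possible because there is no second group. The number of detected members was 30, ranged from 30 to 31 with either library left out, and fell to 17 at a limit of 5 TPM. The median TPM of members was 5.48, between 3.91 and 6.97 with either library left out, and 21.3 after rescaling to the nuclear protein-coding genes. The median relative log2 ratio of -0.05 lay between -0.45 (no filter on low values) and 0.01 (100 or more counts in both). In all 7 alternatives it moved by less than 0.60, the SD of single-gene ratios. That SD is not the error of a median, so it is a loose limit. The ratio has no value with 1 library left out. The count of 1 member past 2-fold became 2 with DESeq2 size factors (Nup107 and Thoc6), 3 with no filter on low values (with Nup153), 0 with a pseudocount of 5 and 0 with 100 or more counts in both, which drops Nup107. The median retained_intron share of 39.8% was 38.2% in the read-based table, 16.8% in counts, 38.5% at 1 TPM or more, and 38.6% to 39.9% with a library left out. The median protein_coding share of 43.9% was 79.5% in counts and 45.2% to 48.6% with a library left out, outside the mean because medians were taken per library. Over 5147 genes by the same rule, the median was 61.5% in TPM and 79.9% in counts. Depth limits the members with few counts, such as Nxt1 (7 and 8), Nup210 (15 and 14) and Nup35 (15.42 and 20).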
